A study of Mus musculus with 14 samples.

Results

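Trp53, the gene of the tumour suppressor p53, and 8 genes that restrain p53 or are switched on by it were followed in the irradiated mouse heart. The 9 genes were Trp53, Mdm2, Mdm4, Ppm1d, Ccng1, Btg2, Plk2, Zmat3 and Phlda3, chosen by gene symbol from the 54532 genes of the deposited count table, and all 9 were among the 16034 genes with enough counts to be tested. Heart tissue came from 14 male C57BL/6J mice that were 8 weeks old when the irradiated ones received 30 Gy of 60Co γ-rays to the anterior chest under pentobarbital, with the rest of the body behind lead. Tissue was taken at 1 day from 3 control mice (Control_1d) and 3 irradiated mice (IRR_1d), and at 6 weeks from 4 control mice (Control_6w) and 4 irradiated mice (IRR_6w), with 1 library per mouse and no genetic change in any group. The question was which of these transcripts differed between irradiated and control hearts at each time, and whether that difference changed between 1 day and 6 weeks.

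p53 is a transcription factor that is held at a low level by constant degradation. Mdm2 attaches ubiquitin to it, and Mdm4, a relative of Mdm2, binds and masks its activation domain. DNA breaks activate the kinases Atm and Chek2, which free p53 from both, so p53 is controlled largely at the level of the protein. Active p53 then induces Mdm2 itself and Ppm1d, a phosphatase that removes the marks set by Atm, and these close a negative loop. Ccng1 (cyclin G1), which brings a phosphatase to Mdm2, is a further arm of that loop. Btg2 slows division, Plk2 is a stress-responsive kinase, Zmat3 is an RNA-binding protein that acts in splicing and RNA stability, and Phlda3 holds the survival kinase Akt off the membrane. Adult heart muscle cells rarely divide, and heart tissue also holds endothelium, fibroblasts and macrophages, so in bulk RNA fewer cells of a type and less RNA per cell cannot be told apart.

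A p53 response element consists of a pair of motifs of 10 bases each. The 300 bases from 250 before to 50 after each start site in RefSeq (GRCm38.p6) were searched on both strands for the consensus p53 site without a spacer, with its core C and G bases intact and at most 2 mismatches. Such a site stood in 107 of 32851 promoters (0.326%). Of the 9 genes, 8 had a promoter in the table (Zmat3 had none there), and only that of Ccng1 held a site, on the minus strand of chromosome 11. It carried 1 mismatch and began 195 bases before the start. The stretch is shown because Ccng1 was the most abundant of the 9 transcripts in every group, with that of Cdkn1a, the classical p53 target, beside it. The Cdkn1a site also had 1 mismatch and began 51 bases before the first start of that gene on chromosome 17. Of the 25 other p53 targets taken up below, 18 had a promoter to search, and only Cdkn1a and Gtse1 held a site. Capitals mark the 20 bases of the site, its 1 mismatch included, and each line reads 5′ to 3′ along the strand of the gene.
Ccng1, chr11:40755442-40755501: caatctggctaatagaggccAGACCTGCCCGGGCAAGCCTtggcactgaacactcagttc
Cdkn1a, chr17:29090908-29090967: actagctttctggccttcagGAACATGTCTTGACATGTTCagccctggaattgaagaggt
The last 100 bases before the start of Phlda3, which stood far higher in the irradiated hearts at 1 day, are given for comparison, without capitals since no site was found there.
Phlda3, chr1:135765985-135766084: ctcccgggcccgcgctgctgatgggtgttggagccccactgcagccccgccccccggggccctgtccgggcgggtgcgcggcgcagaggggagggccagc
A missing match says only that these letters were not in this window.

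Counts per library ran from 13336746 to 16837265, and the 9 genes had between 74 and 37537 counts in a library. Control_6w replicate 3 stood apart. Its summed level of 7 thymocyte genes was 2781 CPM, a count scaled to the library size, against 0 to 41.8 in the other 13 libraries, all 7 were above 0 there, and its 7 heart muscle genes summed to 4400 CPM against 7868 to 38006 elsewhere. The fold changes of the 9 genes at 6 weeks are therefore given with and without it. In IRR_6w replicate 1 the lung epithelium genes, all 5 above 0, summed to 356 CPM, against 0 to 24.9 CPM elsewhere. Summed CPM of 4 atrial genes ran from 9.87 to 2818 between libraries, highest in that same one, and which parts of the heart were taken is not given in the sources used here. Control_1d replicate 1 and IRR_6w replicates 3 and 4 had the fewest detected genes. No batch was named in the labels. Levels below are CPM with TMM scaling, values follow replicate order, errors are SDs between mice, and fold changes are from edgeR's quasi-likelihood test. A gene was called when its fold change was above 2 or below 0.5 and its Benjamini-Hochberg adjusted p over all 16034 genes was under 0.05.

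Of the 9 genes, Zmat3 at 6 weeks was the only one called. Zmat3 and Phlda3 stood 3.31 and 6.57 times higher in IRR_1d than in Control_1d, with no overlap between the groups, and neither passed the adjusted threshold there. Trp53 itself, Mdm4, Ppm1d, Ccng1 and Btg2 had overlapping groups at both times. The plot of all libraries gives each value.

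**Figure D1:**
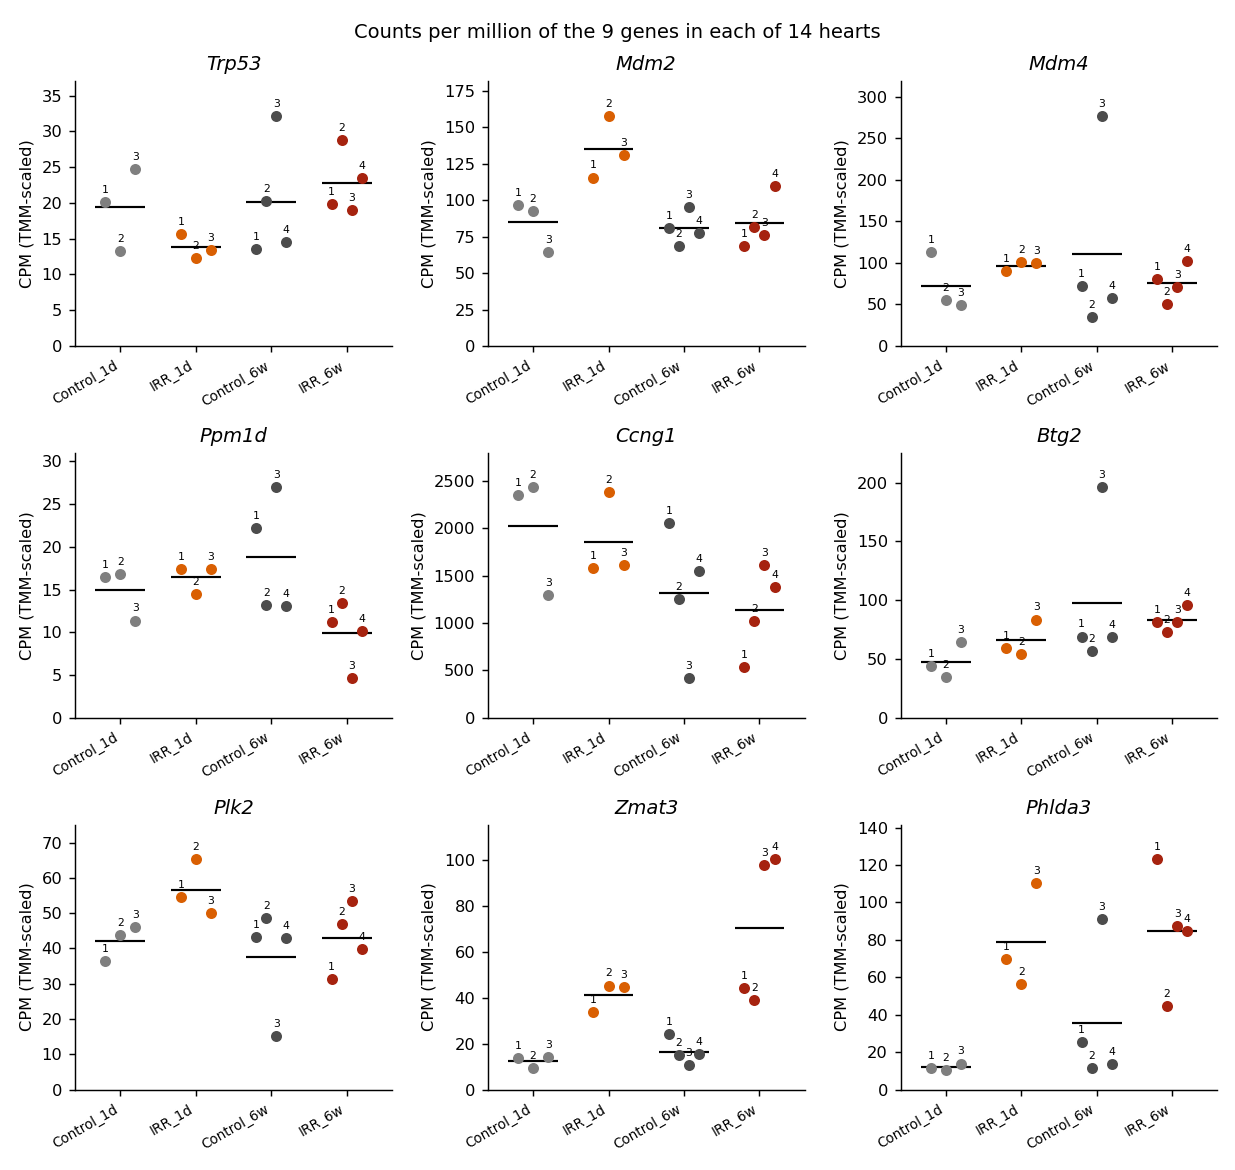
TMM-scaled CPM (y axis, linear, from 0) of each of the 9 genes in the 14 hearts, by group (x axis). Points are mice with their replicate numbers and bars are group means. Zmat3 and Phlda3 are higher in IRR_1d than in Control_1d without overlap, and Control_6w replicate 3 is far from its group for Mdm4 (277 CPM), Btg2 (196 CPM) and Phlda3 (91.3 CPM).

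Compared per kilobase of the deposited gene length, the transcripts spanned a wide range of levels. In Control_1d the mean FPKM (scaled by TMM) was 577 ± 181 for Ccng1 (SD, n = 3), followed by Btg2 (17.4 ± 5.52) and Mdm2 (16.7 ± 3.45), whose ranges overlapped. Plk2 (9.38 ± 1.13) and Phlda3 (7.70 ± 1.11) came next and overlapped each other. Mdm4 (4.89 ± 2.42), Trp53 (4.80 ± 1.43) and Ppm1d (4.70 ± 0.960) lay within each other's spread, and Zmat3 was lowest at 1.09 ± 0.232. In IRR_1d, Phlda3 stood second with a mean of 50.6 ± 18.0 FPKM, above every Mdm2 value of that group, and Zmat3 (3.62 ± 0.565) overlapped Trp53 (3.41 ± 0.416), which was then the lowest. In IRR_6w the lowest mean was that of Ppm1d, 3.11 ± 1.17 FPKM (SD, n = 4).

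Trp53 (ENSMUSG00000059552, chromosome 11, 69580359–69591873, plus strand, GRCm38) was at 20.2, 13.3 and 24.8 CPM in Control_1d and at 15.6, 12.3 and 13.4 CPM in IRR_1d. The groups overlapped through Control_1d replicate 2. IRR_1d differed by -0.49 on the log2 scale (SE 0.357, edgeR adjusted p = 1). At 6 weeks it was at 13.6, 20.3, 32.2 and 14.5 CPM in Control_6w and at 19.8, 28.7, 19.0 and 23.5 CPM in IRR_6w. The highest value of all was that of the control library with thymocyte transcripts, and the log2 fold change was 0.18 (SE 0.307, edgeR adjusted p = 0.906), or 0.50 (SE 0.275, adjusted p = 0.531) without that library and 0.0036 without Control_6w replicate 1, the ends of the range over 14 fits without 1 library. Between the irradiated groups every IRR_6w value was above every IRR_1d value (log2 fold change 0.72, SE 0.338, edgeR adjusted p = 0.864). Its start lies 104 bases from that of Wrap53 on the opposite strand, and none of the 9 genes shared exonic bases with another gene.

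Beside these Trp53 levels stand those of 6 cell cycle genes, Mki67, Top2a, Cdk1, Ccnb1, Ccna2 and Bub1. They summed to 2.57 to 4.46 CPM in IRR_1d, with 3, 2 and 0 of the 6 at 0 counts in replicates 1, 2 and 3, and to 16.3 to 41.7 CPM in Control_1d, with 4, 0 and 0 at 0 counts. In Control_6w replicate 3 they reached 1480 CPM against 19.4 to 38.0 in the other controls of that time and 50.5 to 129 CPM in IRR_6w. Over all 14 libraries the genes whose log2 CPM was most like that of Trp53 were Cfl1, an actin-severing protein (Pearson's r 0.874), Mybl2, a cell cycle transcription factor (0.863), and Mcm5, part of the replicative helicase (0.846). These are descriptions over libraries that share 1 unusual member, and the part of cycling cells in the Trp53 level was not tested.

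The direct brakes on p53 are Mdm2 and Mdm4. Mdm2 (ENSMUSG00000020184, chromosome 10, 117688875–117710758, minus strand) was at 96.8, 92.9 and 64.7 CPM in Control_1d and at 116, 158 and 131 CPM in IRR_1d. Each irradiated heart was above each control, by 0.67 on the log2 scale (SE 0.256, unadjusted p = 0.0200, edgeR adjusted p = 1), which is 1.59 times and below the fold limit. At 6 weeks the values were 81.0, 68.8, 95.1 and 77.8 CPM in Control_6w and 68.8, 82.0, 76.1 and 110 CPM in IRR_6w. The groups overlapped almost wholly, 0.06 apart on the log2 scale (SE 0.221, edgeR adjusted p = 0.960), or 0.15 (SE 0.224, adjusted p = 0.860) without Control_6w replicate 3. All IRR_6w values were below all IRR_1d values (log2 fold change -0.68, SE 0.237, unadjusted p = 0.0119, edgeR adjusted p = 0.668). From 1 day to 6 weeks the irradiation effect changed by -0.61 on the log2 scale (SE 0.338, edgeR adjusted p = 0.990).

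Mdm4 (ENSMUSG00000054387, chromosome 1, 132959484–133030561, minus strand) was at 114, 54.8 and 48.7 CPM in Control_1d and at 89.9, 101 and 99.4 CPM in IRR_1d. Control_1d replicate 1 was above all 3 irradiated hearts. At 6 weeks Control_6w was at 71.7, 34.5, 277 and 57.8 CPM and IRR_6w at 81.0, 51.0, 71.3 and 102 CPM. The value of 277 CPM, in the library with thymocyte transcripts, was 5.07 times the mean of the other 3 controls. The log2 fold change at 6 weeks was -0.53 (SE 0.517, edgeR adjusted p = 0.820) and turned to 0.48 (SE 0.336, adjusted p = 0.637) without it. In the same library the ratio of Mdm4 to Mdm2 per kilobase was 1.00, against 0.173 to 0.405 in the other 13.

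Because Mdm2 is both a target and a brake of p53, its level was set against that of Trp53 in each heart, per kilobase. The ratio was 2.08 to 5.57 in Control_1d (mean 3.82 ± 1.75, SD, n = 3) and 5.88 to 10.2 in IRR_1d (7.96 ± 2.16). It was 2.35 to 4.74 in Control_6w (3.52 ± 1.17, n = 4) and 2.27 to 3.71 in IRR_6w (2.98 ± 0.614). The IRR_1d hearts were above every heart of the other groups, while both 6-week groups overlapped. The ratio joins a numerator that was higher to a denominator that was lower at 1 day, and it was not tested on its own.

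Ppm1d (ENSMUSG00000020525, chromosome 11, 85311244–85347066, plus strand), the phosphatase of the loop, was at 16.5, 16.8 and 11.4 CPM in Control_1d and at 17.4, 14.5 and 17.4 CPM in IRR_1d. The groups overlapped. At 6 weeks the controls were at 22.2, 13.2, 27.0 and 13.1 CPM and the irradiated hearts at 11.3, 13.4, 4.70 and 10.1 CPM. A single irradiated heart, replicate 2, lay above the lowest 2 controls. IRR_6w differed by -0.93 on the log2 scale (SE 0.351, unadjusted p = 0.0184, edgeR adjusted p = 0.410), and -0.71 (SE 0.348, adjusted p = 0.468) without Control_6w replicate 3. All IRR_6w values were below all IRR_1d values (log2 fold change -0.73, SE 0.374, edgeR adjusted p = 0.904). Ppm1d per kilobase of Trp53 was 0.316 to 0.724 in IRR_6w and 0.829 to 2.08 in Control_6w, with no overlap. The lowest count, 74, was in IRR_6w replicate 3, 1 of the libraries with few detected genes.

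**Figure D2:**
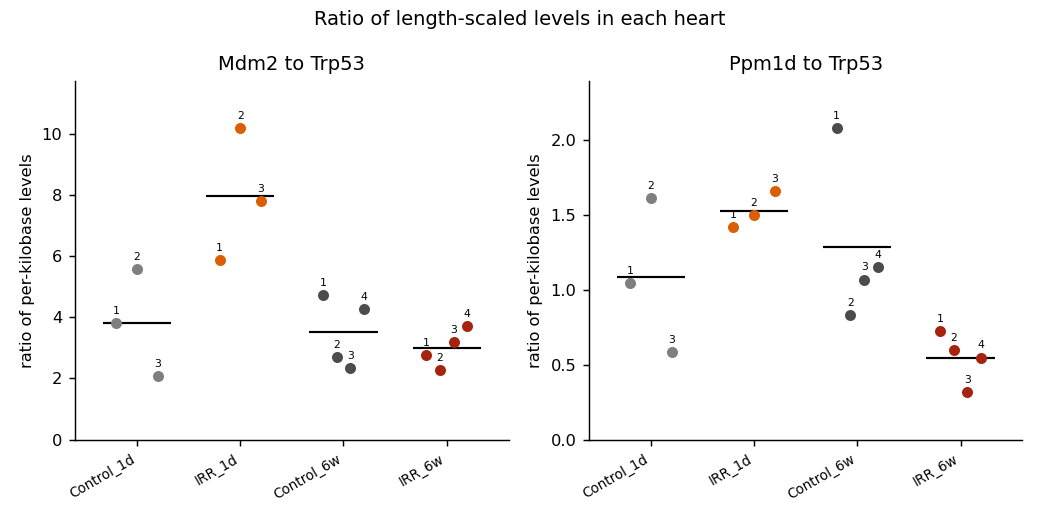
Ratio of Mdm2 (left) and Ppm1d (right) to Trp53 per kilobase in each heart, by group (y axes linear, from 0, no unit). Points are mice with replicate numbers and bars are group means. For Mdm2 the IRR_1d hearts lie at 5.88 to 10.2, above all others, and for Ppm1d the IRR_6w hearts lie at 0.316 to 0.724, below all Control_6w hearts.

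Ccng1 (ENSMUSG00000020326, chromosome 11, 40748552–40755311, minus strand), whose promoter carried the p53 site above, did not differ beyond the spread between mice. It was at 2350, 2434 and 1295 CPM in Control_1d and at 1584, 2382 and 1616 CPM in IRR_1d. The difference was -0.12 on the log2 scale (SE 0.521, edgeR adjusted p = 1), and it turned to 0.05 without Control_1d replicate 2. At 6 weeks it was at 2053, 1257, 420 and 1551 CPM in Control_6w and at 538, 1024, 1612 and 1386 CPM in IRR_6w (log2 fold change -0.21, SE 0.451, edgeR adjusted p = 0.926). Without Control_6w replicate 3 it was -0.51 (SE 0.373, adjusted p = 0.663), and with library totals in place of TMM the sign turned (0.08). The lowest control was again replicate 3, at 0.259 times the mean of the other 3, and the lowest irradiated heart was IRR_6w replicate 1, the library with lung and atrial transcripts. Cdkn1a, with the other site shown, was at 31.6, 57.9 and 23.2 CPM in Control_1d and at 176, 182 and 254 CPM in IRR_1d, higher by 2.44 on the log2 scale (SE 0.444, edgeR adjusted p = 0.187) without overlap.

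Btg2 and Plk2 act on growth. Btg2 (ENSMUSG00000020423, chromosome 1, 134075170–134079120, minus strand) was at 44.4, 34.6 and 64.3 CPM in Control_1d and at 59.6, 54.3 and 83.5 CPM in IRR_1d, and the groups overlapped (log2 fold change 0.46, SE 0.414, edgeR adjusted p = 1). At 6 weeks it was at 69.1, 57.0, 196 and 68.8 CPM in Control_6w and at 81.4, 72.6, 81.2 and 95.9 CPM in IRR_6w. Apart from Control_6w replicate 3, every irradiated heart was above every control. Its log2 fold change of -0.24 (edgeR, SE 0.358, adjusted p = 0.887) became 0.35 (SE 0.239, adjusted p = 0.628) without that library.

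Plk2 (ENSMUSG00000021701, chromosome 13, 110395046–110400844, plus strand) was at 36.4, 43.7 and 46.2 CPM in Control_1d and at 54.6, 65.3 and 50.1 CPM in IRR_1d. The groups did not overlap, and IRR_1d was higher by 0.43 on the log2 scale (SE 0.353, edgeR adjusted p = 1). At 6 weeks it was at 43.2, 48.6, 15.2 and 43.0 CPM in Control_6w and at 31.5, 47.0, 53.4 and 39.9 CPM in IRR_6w. The log2 fold change of 0.20 (edgeR, SE 0.305, adjusted p = 0.892) came to -0.06 (SE 0.212, adjusted p = 0.946) without Control_6w replicate 3, the lowest of the 14 hearts for this gene.

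Zmat3 (ENSMUSG00000027663, chromosome 3, 32334792–32366014, minus strand) was at 13.7, 9.45 and 14.3 CPM in Control_1d and at 33.9, 45.3 and 44.9 CPM in IRR_1d. The lowest irradiated heart was far above the highest control. The log2 fold change was 1.73 (SE 0.402, 3.31 times, unadjusted p = 7.0e-04, edgeR adjusted p = 0.562). DESeq2 on the same libraries gave 1.72 with an adjusted p of 0.0282 and limma-voom 1.69 with 0.925. At 6 weeks Zmat3 was at 24.1, 14.98, 10.8 and 15.5 CPM in Control_6w and at 44.3, 38.8, 97.7 and 100.4 CPM in IRR_6w. All irradiated hearts were again above all controls, and replicates 3 and 4 stood well above the other 2.

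At 6 weeks Zmat3 rose 4.30 times, which is 2.10 on the log2 scale (SE 0.351, edgeR adjusted p = 0.0252). With edgeR on the 6-week groups alone the fold was about the same and the call was lost (2.10, SE 0.394, adjusted p = 0.0928). It was also lost with the replicate number as a block (edgeR adjusted p = 0.0828). DESeq2 kept the call on all libraries (2.12, adjusted p = 3.3e-06) and on the 6-week groups alone (2.10, adjusted p = 1.3e-04). limma-voom kept it too (2.05, adjusted p = 0.0425). So did edgeR with library totals (adjusted p = 0.0222), RLE scaling (0.0238) or no filter (0.0021). In edgeR the call was kept in 8 of 14 fits that left out 1 library. It was lost without any 1 of the 4 Control_6w libraries or IRR_6w replicate 3 or 4. Over the 14 fits the adjusted p ran from 0.0123 to 0.126 and the log2 fold change from 1.88 to 2.32. The value of 2.32 was that without Control_6w replicate 1, with an edgeR unadjusted p of 2.2e-05, against 2.9e-05 with all libraries. Its adjusted p was 0.0752, and 0 of 15904 genes were called at 6 weeks in that fit. Without Control_6w replicate 3 the log2 fold change was 1.95 (adjusted p = 0.0505). Without Control_1d replicate 1 and IRR_6w replicates 3 and 4 together, the libraries with few detected genes, it was 1.35 (adjusted p = 0.320). From 1 day to 6 weeks the Zmat3 effect changed by 0.38 (SE 0.517, edgeR adjusted p = 0.990). Other measures also separated the groups at 6 weeks. The 5 macrophage genes summed to 361 to 550 CPM in IRR_6w against 106 to 250 CPM in Control_6w, and the 5 fibroblast genes to 2018 to 2688 CPM against 813 to 1935 CPM, with all 10 above 0 in every library. Mitochondrially encoded genes took 10.4 to 22.2% of the counts in IRR_6w and 22.3 to 30.3% in Control_6w, without overlap. At 1 day, where the Zmat3 groups did not overlap either, the macrophage sums overlapped at 253 to 340 CPM in IRR_1d and 205 to 260 CPM in Control_1d, and so did the fibroblast sums and the mitochondrial shares. The 5 endothelial genes, all above 0, were lower in IRR_1d (871 to 1050 CPM) than in Control_1d (1227 to 1407 CPM) without overlap. The part of these cell types in the levels of the 9 genes was not tested. The gene most like Zmat3 over the 14 libraries was Capg, an actin-capping protein (r 0.946, and 0.765 after the group means were taken out), followed by P2rx7 (0.935) and Ano3 (0.932).

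Phlda3 (ENSMUSG00000041801, chromosome 1, 135766119–135769136, plus strand) was at 11.5, 10.6 and 13.9 CPM in Control_1d and at 69.9, 56.4 and 110 CPM in IRR_1d. Each irradiated heart lay well above every control. The log2 fold change was 2.72 (SE 0.667, 6.57 times, unadjusted p = 0.00109, edgeR adjusted p = 0.687). At 6 weeks the controls were at 25.4, 11.8, 91.3 and 13.5 CPM and the irradiated hearts at 123, 44.4, 87.5 and 84.7 CPM. The highest irradiated value was that of IRR_6w replicate 1, the library with lung transcripts. Only Control_6w replicate 3, at 5.41 times the mean of the other 3 controls, reached into the irradiated range, and the log2 fold change was 1.26 (SE 0.548, edgeR adjusted p = 0.520).

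The edgeR calls for Phlda3 depended on that library at both times. Without Control_6w replicate 3 it was called at 6 weeks (log2 fold change 2.33, SE 0.386, adjusted p = 0.0391 in edgeR) and at 1 day (2.71, SE 0.406, edgeR adjusted p = 0.0282). It was not called in the other 13 fits without 1 library at either time. DESeq2 on all libraries called it at 1 day (adjusted p = 0.0157) and not at 6 weeks (adjusted p = 0.319). edgeR on the 2 groups compared, which at 1 day held no 6-week library, called Phlda3 at neither time. At 1 day the log2 fold change was about the same with and without Control_6w replicate 3 (2.72 and 2.71). Its SE was 0.667 with that library and 0.406 without it. The main fit shares 1 estimate of the spread of each gene over the 4 groups. The cause of the changed call at 1 day was not tested. The level in the controls was 2.96 times higher at 6 weeks than at 1 day (log2 fold change 1.56, SE 0.615, adjusted p = 0.902 in edgeR), which fell to 0.49 on the log2 scale (SE 0.387, adjusted p = 0.999) without Control_6w replicate 3. IRR_6w and IRR_1d overlapped (log2 fold change 0.11, SE 0.583, edgeR adjusted p = 0.999). The part of thymocyte RNA in the control value was not tested.

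**Figure D3:**
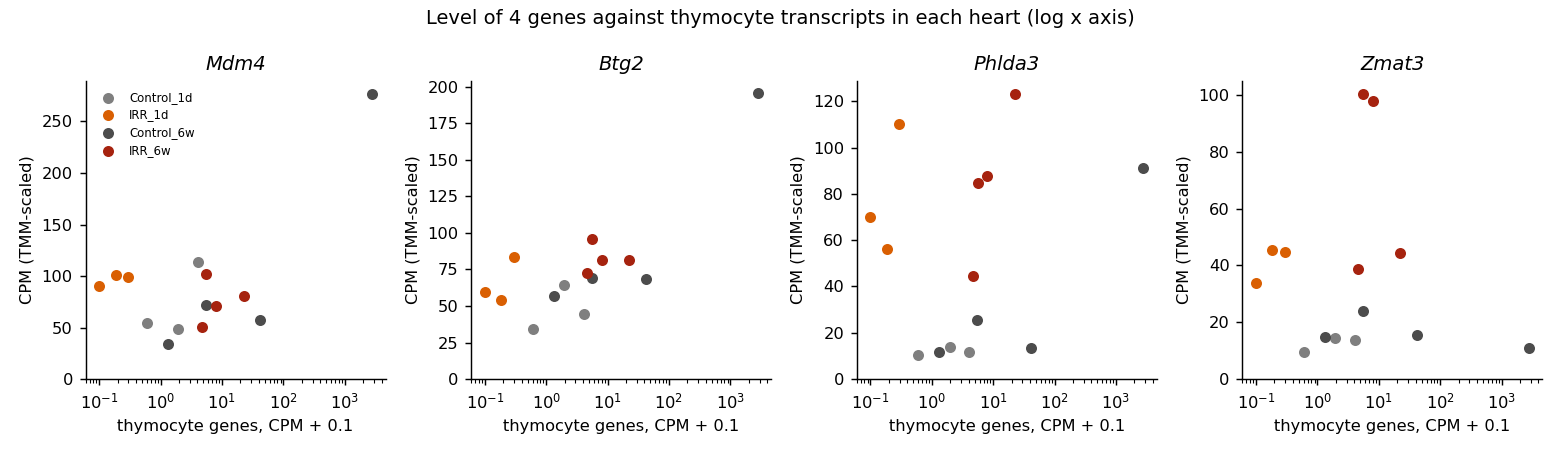
Level of Mdm4, Btg2, Phlda3 and Zmat3 (y axes, TMM-scaled CPM, linear from 0) against the summed CPM of 7 thymocyte genes plus 0.1 (x axes, log scale) in each heart, coloured by group. The library at the far right (2781 CPM) is Control_6w replicate 3, which is highest for Mdm4 and Btg2, within the irradiated range for Phlda3 and among the lowest for Zmat3.

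Counted over the 9 genes at 1 day, edgeR called 0, against 4 of 16034 genes called higher (0.0249%). By an unadjusted p under 0.05 with the fold limit, Zmat3 and Phlda3 passed (2 of 9, against 1.56% of all genes higher), and DESeq2 on all libraries with adjusted p called the same 2 (against 25 of 16034 genes called higher, 0.156%). Groups did not overlap, with irradiation higher, for Mdm2, Plk2, Zmat3 and Phlda3 (4 of 9, against 6.52% of all genes). The median log2 fold change was 0.43 against 0.06 over all genes, and 7 of 9 were above 0, against 55.1% of all genes.

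At 6 weeks edgeR called 1 of 9, Zmat3, against 38 of 16034 genes called higher (0.237%). At an unadjusted p with the fold limit 2 of 9 passed, Zmat3 and Phlda3, against 3.69% of all genes higher, and Zmat3 alone had groups that did not overlap, against 4.08%. The median of the 9 was 0.06, against -0.09 over all genes, and without Control_6w replicate 3 it was 0.35 against 0.01. The plot of fold changes sets both times side by side.

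**Figure D4:**
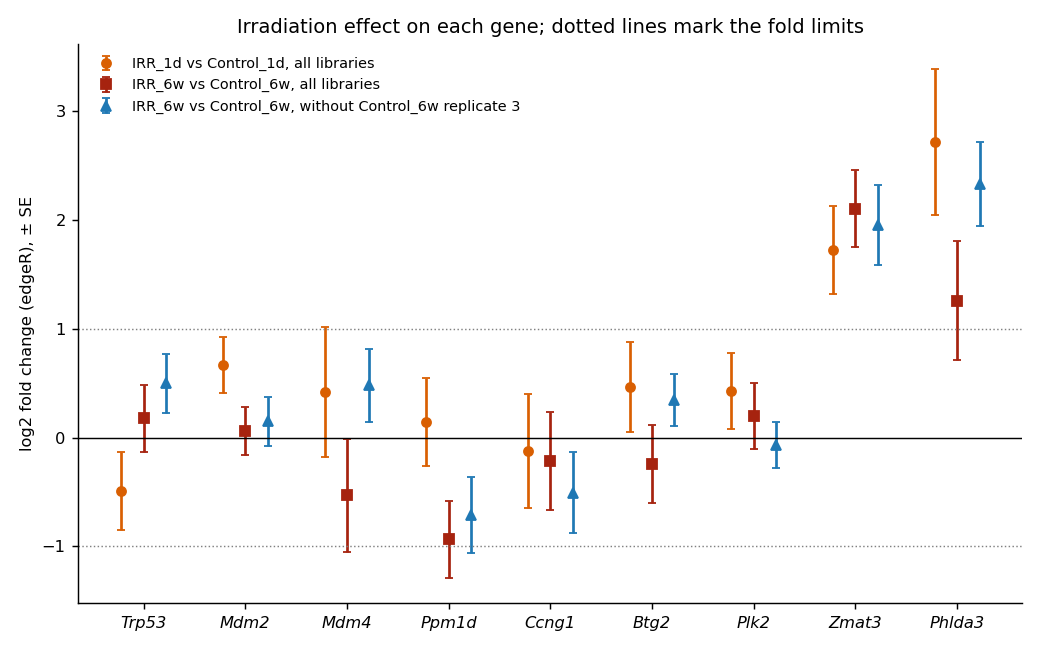
Log2 fold change with SE from edgeR (y axis) of the 9 genes (x axis) at 1 day (circles), at 6 weeks with all libraries (squares) and at 6 weeks without Control_6w replicate 3 (triangles), with dotted lines at the fold limits. Zmat3 lies at 1.73, 2.10 and 1.95, while Phlda3 moves from 1.26 to 2.33 and Mdm4 from -0.53 to 0.48 when that library is left out.

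Between the control groups edgeR called 0 of 9 and 0 of 16034 genes higher (0%). Btg2 (log2 fold change 1.03, SE 0.397, adjusted p = 0.902 in edgeR) and Phlda3 were higher at 6 weeks at an unadjusted p with the fold limit (2 of 9, against 2.72% of all genes). That count rests on Control_6w replicate 3, without which Btg2 came to 0.44 and Phlda3 to 0.49 on the log2 scale, below the fold limit. Between the irradiated groups 0 of 9 were called by edgeR, against 0.0312% of all genes called higher, and 0 of 9 passed at an unadjusted p with the fold limit, against 3.06% higher and 0.786% lower. Groups did not overlap for Trp53, higher at 6 weeks (against 5.47% of all genes), and for Mdm2 and Ppm1d, lower at 6 weeks (against 3.84%). These comparisons share their samples with those between irradiated and control hearts. The change in the irradiation effect was called for 0 of 9 and 0 of 16034 genes upward (0%), and at an unadjusted p with the fold limit for 0 of 9, against 1.98% of all genes upward and 0.879% downward. Ppm1d had the smallest unadjusted p of the 9, with a change of -1.07 (SE 0.534, unadjusted p = 0.0631, edgeR adjusted p = 0.990).

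The 9 transcripts did not move as a block across hearts. Of their 36 pairs, 20 had a Pearson's r of log2 CPM above 0 over the 14 libraries, from -0.777 for Ccng1 and Btg2 to 0.741 for Ccng1 and Plk2. Zmat3 and Phlda3 had an r of 0.722, which was -0.08 once group means were taken out. Within IRR_6w, Phlda3 was highest in replicate 1 and Zmat3 in replicate 4. Btg2 and Phlda3 had an r of 0.654, and 0.870 within groups. Genes most like the other members were Perp for Ccng1 (0.966), Itm2a for Mdm4 (0.912), Rdh11 for Btg2 (0.940), Alox5 for Plk2 (0.930), Pqlc3 for Phlda3 (0.923), C030034I22Rik for Ppm1d (0.949) and Arsk for Mdm2 (0.730). These correlations are over 14 libraries that share the unusual one.

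Among 25 other p53 targets (arrest, death and repair genes), 18 had a log2 fold change above 0 at 1 day, against 55.1% of all genes. Their median was 0.97, against 0.06 over all genes. Sesn2, a stress-induced inhibitor of growth signalling, was the only one called by edgeR, against 0.0249% of all genes called higher. It rose by 3.16 on the log2 scale (SE 0.428, edgeR adjusted p = 0.0235), from 2.13, 3.72 and 7.31 CPM in Control_1d to 40.5, 30.5 and 46.6 CPM in IRR_1d. At an unadjusted p with the fold limit 10 of 25 passed (against 1.56% of all genes), and 14 of 25 had groups that did not overlap (against 6.52%), all higher after irradiation. The next by p were Cdkn1a, Bax, which opens the mitochondrial membrane (log2 fold change 2.15, SE 0.424, adjusted p = 0.310 in edgeR), and Eda2r, a receptor of the tumour necrosis factor family (2.93, SE 0.611, adjusted p = 0.365). The Sesn2 call was kept in 5 of 14 fits without 1 library, namely those that left out IRR_6w replicate 1, 3 or 4 or the third library of a control group (adjusted p 0.0155 to 0.243 over the 14). DESeq2 on all libraries called 5 of the 25 targets, Sesn2 among them, against 0.156% of all genes called higher. limma-voom called 0 of 25 (Sesn2 3.38, adjusted p = 0.0841), as did edgeR on the 2 groups compared.

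At 6 weeks 15 of those 25 targets were above 0, against 43.8% of all genes, with a median of 0.39 against -0.09. DESeq2 on all libraries called 7 of the 25, against 299 of 16034 genes called higher. edgeR called 1, Eda2r, against 0.237% of all genes called higher. It rose from 10.03, 7.26, 3.98 and 6.996 CPM in Control_6w to 32.5, 46.7, 106 and 130 CPM in IRR_6w (log2 fold change 3.48, SE 0.542, edgeR adjusted p = 0.0188). As for Zmat3, replicates 3 and 4 were the highest of the irradiated hearts. Leaving out IRR_6w replicate 3 or 4, or any control of that time other than replicate 3, ended the call, over adjusted p of 0.00761 to 0.115 in the 14 such fits. Next came the death receptor Tnfrsf10b (2.09, SE 0.423, edgeR adjusted p = 0.0597), Sesn2 (1.67, SE 0.350, adjusted p = 0.0663) and Cdkn1a (1.77, SE 0.375, adjusted p = 0.0698). At an unadjusted p with the fold limit 8 were higher, against 3.69% of all genes. The lower ones were 2, against 1.75%, the death receptor Fas (-1.13) and Ccng2 (-1.16). Both were highest in Control_6w replicate 3. Fas was at 39.7 CPM there and at 21.9 to 23.9 CPM in the other controls of that time. Ccng2 was at 167 CPM there and at 25.2 to 47.3 CPM in those others. The count of lower targets without that library is not given here. Groups did not overlap for 7 targets with irradiation higher (against 4.08% of all genes) and for 1, Fas, with irradiation lower (against 1.64%). Without Control_6w replicate 3 the median of the 25 was 1.13, and the values were 3.28 for Eda2r (edgeR adjusted p = 0.0461), 2.12 for Tnfrsf10b (0.0789), 1.78 for Sesn2 (0.0699) and 1.52 for Cdkn1a (0.0786).

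**Figure D5:**
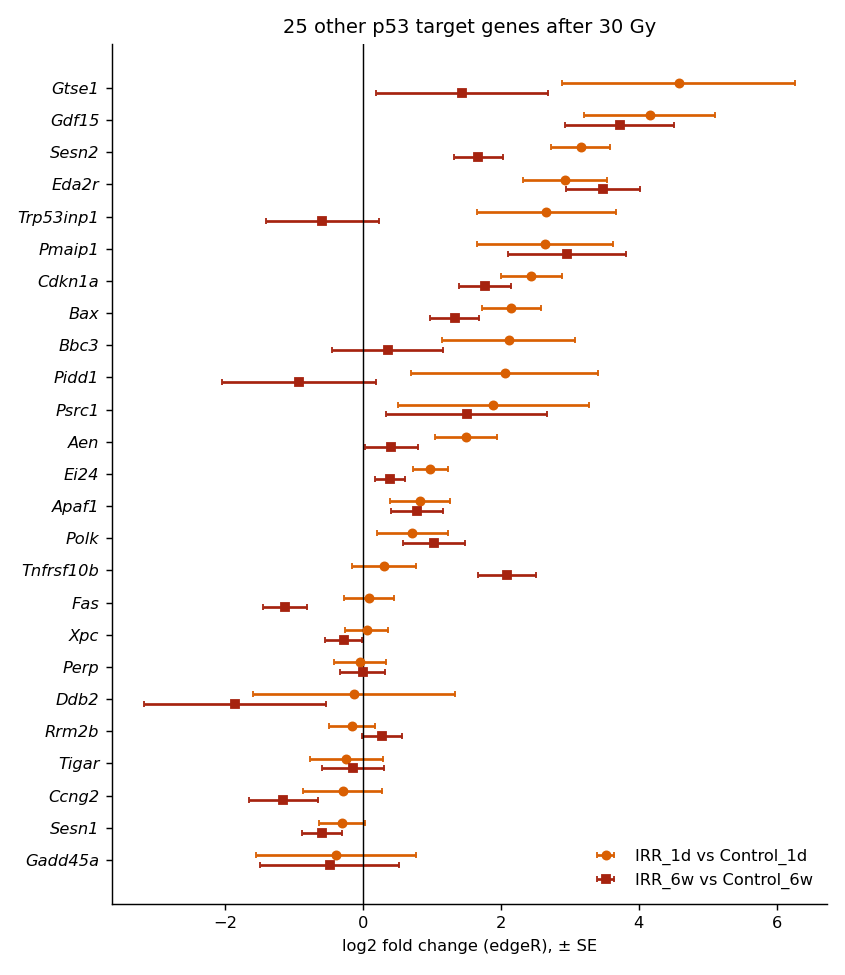
Log2 fold change with SE from edgeR (x axis) of 25 other p53 target genes (y axis, ordered by the value at 1 day) at 1 day (circles) and 6 weeks (squares). Sesn2 at 1 day (3.16) and Eda2r at 6 weeks (3.48) were called, and 18 genes at 1 day and 15 at 6 weeks lie above 0.

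Of 14 genes that act on p53 from above (kinases, acetyltransferases, ubiquitin ligases and ribosomal proteins that bind Mdm2), 13 were tested, without Cdkn2a. edgeR called 0 of 13 at both times, against 0.0249% and 0.237% of all genes called higher at 1 day and 6 weeks. At an unadjusted p with the fold limit 0 of 13 passed, against 1.56% and 3.69% of all genes passing higher. The median log2 fold change was -0.04 at 1 day (6 of 13 above 0, against 55.1% of all genes). At 6 weeks it was -0.33 (5 of 13 above 0, against 43.8%). Without Control_6w replicate 3 the median at 6 weeks turned to 0.024, with 8 of 13 above 0. The smallest p at 1 day were those of the ligase gene Rchy1 (-0.39), the acetyltransferase gene Kat5 (0.32), the ligase gene Cop1 (0.27) and the kinase gene Atr (-0.35). At 6 weeks they were those of Rpl5 (-0.72, SE 0.281, edgeR adjusted p = 0.442), Atm (0.82, SE 0.328, adjusted p = 0.460), Atr (0.59) and Chek1 (-2.39). Chek1, a kinase of dividing cells, was at 30.7 CPM in Control_6w replicate 3 and at 0 to 3.72 CPM in the other 13 hearts, and its value came to 0.00 without that library, where Rpl5 was at -0.46, Atm at 0.98 and Atr at 0.72.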

How the data were processed

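Heart RNA of 14 mice (1 library each) was sequenced. The authors checked reads with FastQC 0.11.8, trimmed them with Trim Galore 0.6.1, aligned them with STAR 2.5.0a to mm10 and used HTSeq for gene counts, which were deposited as whole numbers. Strandedness, counting mode and annotation release are not given in the sources used here. Columns of per-sample values that were left unused numbered 0.

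All 14 libraries were fitted in 1 model of the 4 groups with edgeR 4.0.16 in R 4.3.3 (filterByExpr, TMM, quasi-likelihood test). The study used DESeq2, and here DESeq2 1.42.0 and limma 3.58.1 were alternatives, with other scalings, no filter, a replicate block and libraries left out. FPKM used the deposited gene lengths. Promoters came from RefSeq. By counting alone, 100 counts carry an error of about 10%, and p-values measure the spread between mice. In the main fit that spread is shared by the 4 groups, so 6-week libraries enter the SEs at 1 day. Without Control_6w replicate 3 the 1-day SE in edgeR was 0.227 for Plk2 (0.353 with it), 0.255 for Btg2 (0.414) and 0.356 for Mdm4 (0.597). These 3 genes were not called at 1 day in that fit either. The script was tested on simulated counts.

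Named genes were the 9, the called or 4 smallest-p genes of each further list and comparison, the 3 most correlated genes for each of the 9 (for most only the first is given), and Fas and Ccng2, which were added after their values were seen. The members and lists were chosen with earlier results of these data known.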

Additional observations from a re-analysis of the deposited data

Results flagged for a closer look

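In the groups of 4 libraries, 1 sample far from the others was looked for with Dixon's test at its critical value of 0.829, in 54 such groups of values. Chance flags about 1 in 20. All 7 values found were in Control_6w replicate 3, and they are not independent, since they come from 1 library. Mdm4 was highest there at 277 CPM (next 71.7), and the ratio of Mdm4 to Mdm2 was 1.00 (next 0.304). Btg2 was highest at 196 CPM (next 69.1). Plk2 was lowest at 15.2 CPM (next 43.0). Chek1 was highest at 30.7 CPM (next 3.72). The thymocyte genes summed to 2781 CPM (next 41.8) and the cell cycle genes to 1480 CPM (next 38.0).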

How the results depend on the processing

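The lowest count of the 9 genes in any library was 74, for Ppm1d. Of 432 values of the 9 genes under settings other than single libraries left out, 410 kept direction and side of the threshold. The causes of the changes below were not tested unless fewer samples or genes entered. Counts over all genes moved too: from 4 called at 1 day to 30 and 56 with DESeq2 on all libraries and on the groups compared, and from 41 at 6 weeks to 328 and 309 with these, 83 with library totals and 138 with no filter. They fell to 0 at 1 day and 18 at 6 weeks with limma-voom, to 0 and 13 with edgeR on the groups compared, to 1 and 15 with the replicate block, and to 0 at 6 weeks when replicate 1 or 2 of Control_6w, or 3 or 4 of IRR_6w, was left out. Among fits without 1 library the highest counts were 11 at 1 day, without Control_6w replicate 3, and 98 at 6 weeks, without IRR_6w replicate 1. Without both of those libraries 14 of 15257 genes were called at 1 day and 133 at 6 weeks. Members called at 1 day (main 0) were 2 with DESeq2 on all libraries or on the groups compared, 2 at an unadjusted p, 1 without both Control_6w replicate 3 (thymocyte transcripts) and IRR_6w replicate 1 (lung transcripts), and 0 to 1 without single libraries. At 6 weeks (main 1) they were 0 with edgeR on the 2 groups compared, 0 without the 3 libraries with few detected genes, 2 without both libraries with other tissues, 2 at an unadjusted p, and 0 to 1 without single libraries. Between controls they were 2 at an unadjusted p.

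Other targets called at 1 day (main 1) were 5 with DESeq2 on all libraries, 7 with DESeq2 on the groups compared, 0 with limma-voom, 0 with edgeR on the 2 groups compared, 3 with no filter, 3 without both libraries, 0 without the 3 libraries, 10 at an unadjusted p, and 0 to 3 without single libraries. At 6 weeks (main 1) they were 7 with either DESeq2 fit, 4 with library totals, 5 with no filter, 3 without both libraries, 0 without the 3 libraries, 10 at an unadjusted p, and 0 to 4 without single libraries. Library totals moved the median of all genes by 0.23 (log2) at 6 weeks and 0.31 between the irradiated groups.

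With the replicate number as a block, members called at 6 weeks fell to 0 (Zmat3 2.02, edgeR adjusted p = 0.0828), other targets called at 1 day and 6 weeks were 0 and 0, and no other call among the named genes changed. The labels do not say that equal numbers pair mice. Correlations of same-numbered libraries ran from -0.364 to 0.371. Replicate 2 was closest to its own number at 1 day (0.040) and at 6 weeks (0.371), and the other replicates were not. With 3 or 4 libraries a group these values cannot decide whether the numbers carry a pairing.

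Signs that turned concerned values called in neither fit. With library totals they were Mdm2 between controls (0.071) and Ccng1 at 6 weeks (0.083) and in the change of effect (0.18). Without both libraries with other tissues they were Trp53 between controls (-0.27), Mdm4 at 6 weeks (0.45), between controls (-0.41) and in the change of effect (0.043), Btg2 at 6 weeks (0.36), Plk2 between controls (0.091), Phlda3 between irradiated groups (-0.12) and Chek1 at 6 weeks (0.18). Without the 3 libraries with few detected genes they were Mdm2 at 6 weeks (-0.095) and between controls (0.033), Zmat3 in the change of effect (-0.45) and Atr at 6 weeks (-0.26).

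Over all fits that left out libraries, values that turned ranged at 6 weeks from -0.095 to 0.24 for Mdm2, -0.86 to 0.48 for Mdm4, -0.75 to 0.058 for Ccng1, -0.46 to 0.36 for Btg2, -0.065 to 0.33 for Plk2, -0.26 to 0.90 for Atr and -2.88 to 0.18 for Chek1. At 1 day the range was -0.33 to 0.052 for Ccng1. Between controls it was -0.27 to 0.30 for Trp53, -0.21 to 0.033 for Mdm2, -0.41 to 1.09 for Mdm4 and -0.31 to 0.092 for Plk2. Between irradiated groups it was -0.13 to 0.42 for Phlda3, and in the change of effect -1.64 to 0.068 for Mdm4, -0.75 to 0.17 for Ccng1 and -0.45 to 0.58 for Zmat3.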
